A study of Zea mays with 192 samples.

Results

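Leaf protoplasts transfected with a pool of basic helix-loop-helix (bHLH) factors were compared by how much of their construct signal fell on bHLH51_GFP, the row for a GFP fusion of the factor bHLH51. The series holds 192 single protoplasts, 96 of them transfected with the bHLH pool and the others with a pool of pre-meiotic factors. The cells came from leaves of B73 maize, a wild-type inbred line, which was grown in constant darkness and harvested 10 to 12 days after germination, with more than 10 seedlings combined in each isolation. Every cell compared here received the same pool and had the same genotype and source. The labels name no untransfected cells and none that received bHLH51 alone. Cells were chosen by measured values: for each cell, the unique molecular identifiers (UMIs, each standing for 1 counted RNA molecule) on bHLH51_GFP were divided by the summed UMIs on bHLH51_GFP, bHLH122_GFP, Ms23_GFP and Ms32_GFP. Of the 96 cells, 92 had at least 10 UMIs on these 4 rows. The 30 cells with the highest share are called high-share cells, the 30 with the lowest share low-share cells, and the 32 between them middle-share cells. Since the share was computed from the same libraries, all differences between these groups are descriptions. The labels name no separate transfections, so the pool counts as 1 replicate, and no p-value or standard error was made from cells. Intervals are exact 95% intervals and cover counting error only.

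bHLH factors bind DNA as pairs, with themselves or with other bHLH proteins. In maize anthers Ms23 and Ms32 are needed for the tapetum, the inner cell layer of the anther wall that feeds developing pollen, and bHLH51 and bHLH122 act in the same layer. The design text presents the transfected factors as possible regulators of reproductive phasiRNAs, small RNAs cut in regular steps from the transcripts of PHAS loci. The comparison asks whether cells with relatively more bHLH51 construct RNA, and less of the other constructs, differ in their PHAS transcripts or other genes.

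The bHLH51_GFP share ran from 14.3% to 63.2% over the 92 cells. It was 37.8% over all of their UMIs together, 2213 of 5856. Low-share cells had a median share of 28.2%, middle-share cells 35.9% and high-share cells 46.0%. The groups met without a gap. The highest low-share cell and the lowest middle-share cell both had 33.3%, the highest middle-share cell had 41.0% and the lowest high-share cell 41.2%. Of 5 cells at exactly 33.3%, 3 were placed among the low-share cells by protoplast number.

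The spread of the share was moderately wider than counting error. The standard deviation of the share was 10.0 percentage points, and the UMIs behind each cell alone would give 8.30 points around 1 common share. The variance was 1.62 times that of counting. For 83 of the 92 cells the exact interval of the share held the pooled 37.8%. The 9 others were 5 low-share cells and 4 high-share cells. A median of 31 UMIs on the 4 rows stood behind a low-share cell and 63 behind a high-share cell. The variance was 1.89 times that of counting for the share of bHLH122_GFP, 0.891 times for Ms23_GFP and 1.01 times for Ms32_GFP. The plot of shares by cell shows the intervals.

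**Figure D1:**
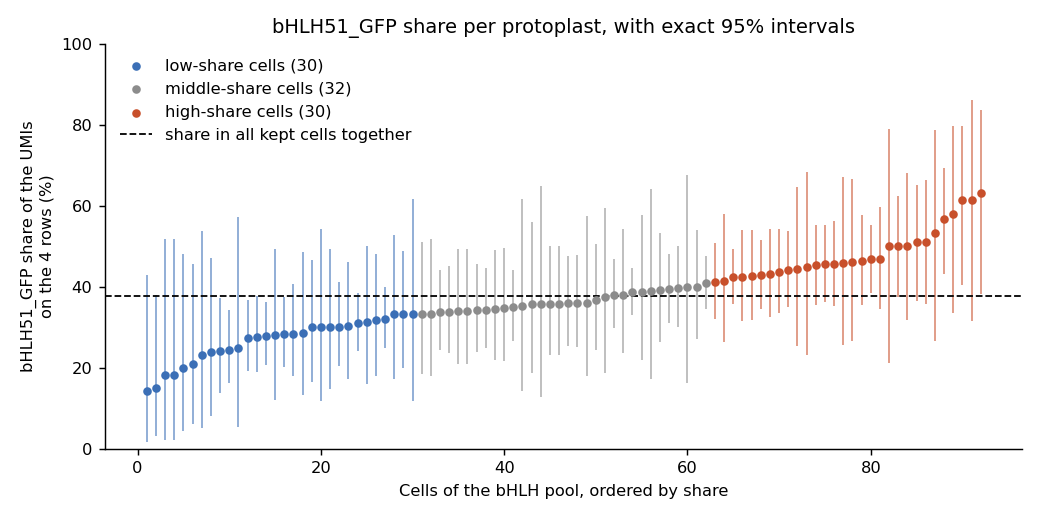
The bHLH51_GFP share of the UMIs on the 4 construct rows is plotted in percent for the 92 kept cells of the bHLH pool in rising order, with low-share cells in blue, middle-share cells in grey and high-share cells in red. Vertical lines are exact 95% intervals, the dashed line is the pooled 37.8%, and 83 of the 92 intervals hold it.

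Among the 4 rows that defined the share, the counterpart of bHLH51_GFP was mainly bHLH122_GFP. Over the summed UMIs, bHLH51_GFP made up 28.4% of the 4 rows in low-share cells and 45.8% in high-share cells, and bHLH122_GFP 45.3% and 30.0%. The rule fixes this in part, and the values are a description. bHLH51_GFP ranged from 127 to 1324 TPM (UMIs per 1000000 in the cell) with a median of 506 in low-share cells. In high-share cells it ranged from 309 to 1953 TPM with a median of 683. bHLH122_GFP ranged from 183 to 2370 TPM with a median of 857 in low-share cells. In high-share cells it ranged from 58.6 to 1595 TPM with a median of 460. The ranges of both rows overlapped between the groups. The medians of Ms23_GFP were 245 and 217 TPM, and those of Ms32_GFP 236 and 159 TPM, in low-share and high-share cells. Mean levels of bHLH51_GFP were 544, 821 and 788 TPM in low-share, middle-share and high-share cells, so the middle-share cells had as much of it as the high-share cells. The 4 rows together had a mean of 2006 TPM in low-share cells and 1684 TPM in high-share cells. Per cell this sum ranged from 522 to 4739 TPM in low-share cells and from 550 to 4558 TPM in high-share cells, so the groups overlapped almost wholly.

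Each factor also has a row named with GFP first, which the share did not use. GFP_bHLH51 did not go up with the bHLH51_GFP share. It was detected in 16 of 30 low-share cells and 19 of 30 high-share cells, with mean levels of 37.4, 45.8 and 30.3 TPM in rising order of share. Its summed UMIs, 26 against 38, gave a high-share over low-share ratio of 0.95 (0.562 to 1.63) per UMI sequenced. GFP_bHLH122 was detected in 21 low-share and 29 high-share cells, at means of 87.7, 116 and 135 TPM. Its Spearman correlation over the 92 cells was 0.12 with bHLH122_GFP and 0.49 with bHLH51_GFP. The ratio of its summed UMIs was 1.33 (1.01 to 1.78). GFP_Ms32 was detected in 13 and 24 cells, at means of 30.2 and 44.7 TPM, and GFP_Ms23 in 16 and 15 cells, at 41.8 and 29.6 TPM. All 8 rows include GFP, and the sources used here do not say how a read that matches several of them was counted, so the split of UMIs between rows is uncertain.

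The gene models ms23 and ms32, which are rows of the maize annotation separate from the constructs, had close mean levels in both groups, and so had 2 unnamed models that were abundant in this pool. GRMZM2G139372, which had no UMI in the pool of pre-meiotic factors, had a mean of 565 TPM in low-share cells, 624 in middle-share cells and 598 in high-share cells. Its cells ranged from 130.5 to 1632 TPM and from 176 to 1660 TPM in the low-share and high-share groups, which overlapped almost wholly. AC233960.1_FG005 had means of 1716, 2103 and 1775 TPM, and 1.35 TPM in the other pool. The model of ms23 (GRMZM2G021276) had means of 786, 1040 and 741 TPM, and that of ms32 (GRMZM2G163233) 1665, 1722 and 1455 TPM. In the other pool their means were 0 TPM for ms23 and 0.175 TPM for ms32. Set against the median gene as described further on, the log2 ratio of high-share to low-share cells was -0.48 for ms32 in cells below the median depth and 0.49 in deeper cells. It was -0.16 and 0.30 for ms23 and 0.01 and 0.58 for GRMZM2G139372, so the direction for ms23 and ms32 turned with depth. Whether RNA of a construct is counted on a gene model was not tested. Over the 92 cells the Spearman correlation of the bHLH51_GFP share with the TPM of these 4 models lay between -0.11 and 0.04, and with GFP_bHLH51 it was -0.01. Between the levels themselves correlations were higher. bHLH51_GFP had a Spearman correlation of 0.63 with bHLH122_GFP, 0.70 with Ms23_GFP, 0.73 with ms32 and 0.63 with GRMZM2G139372. The points of these correlations are cells that share 1 transfected pool, and TPM shares each cell's total. The plot of construct rows and gene models gives each cell's value.

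**Figure D2:**
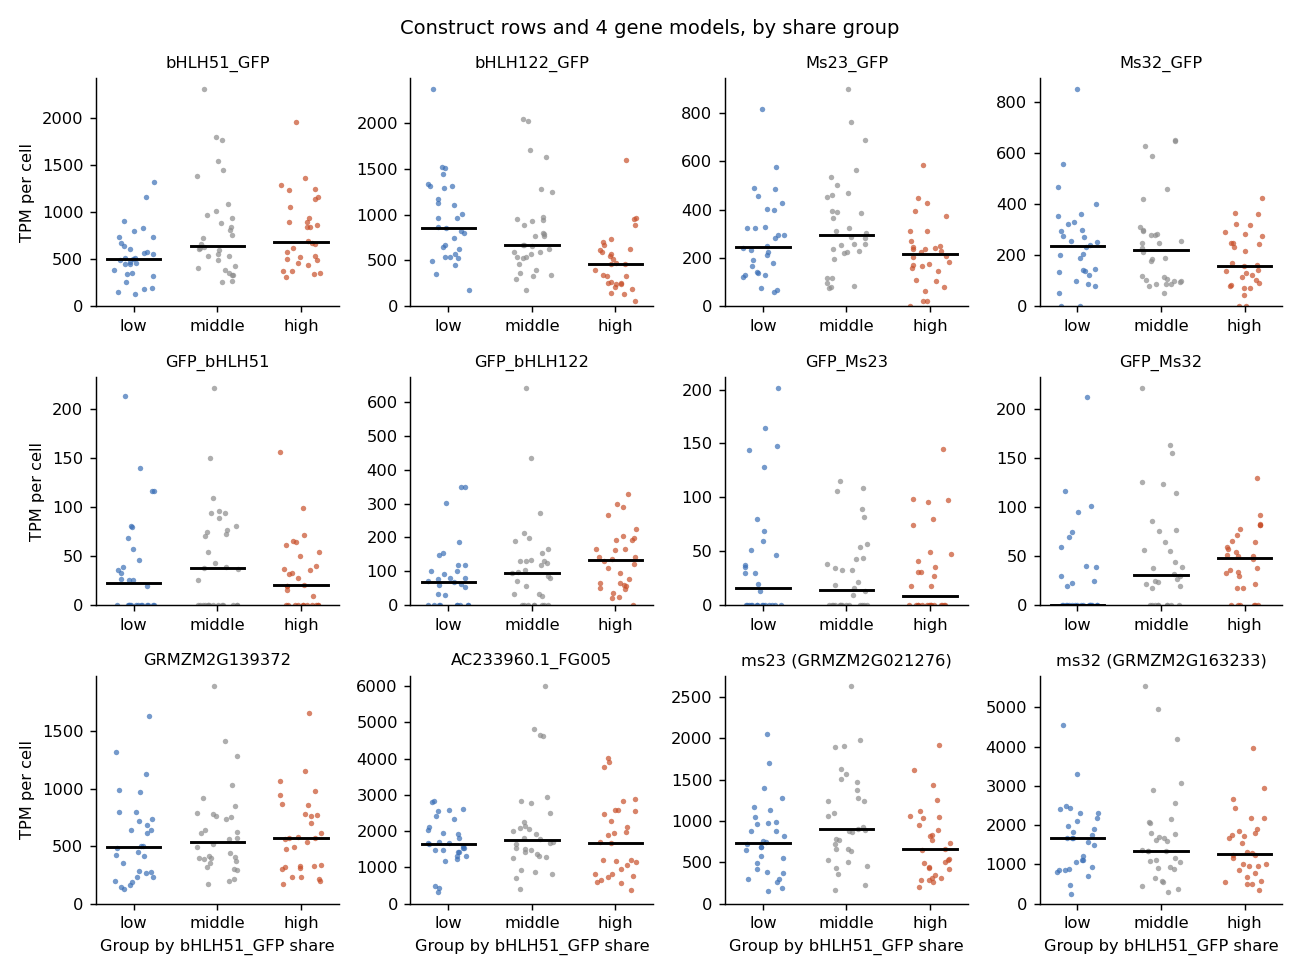
Points are single cells and bars are medians, in TPM on a linear axis, for the 4 rows that defined the share (top), the 4 rows with GFP first (middle) and the 4 gene models (bottom) in low-share, middle-share and high-share cells. The medians of bHLH51_GFP and bHLH122_GFP, which are part of the share, differ in opposite directions with overlapping cells, and GFP_bHLH51 and GRMZM2G139372 do not follow the share (medians of 22.5 against 20.1 TPM and of 493 against 568 TPM in low-share against high-share cells).

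Depth differed between the groups. Low-share cells had a median of 25802 UMIs and 4700 genes, middle-share cells 27594.5 UMIs and 5650 genes, and high-share cells 35413 UMIs and 6340 genes. After thinning to 5000 UMIs per cell, which left out 1 low-share cell, the order of the medians turned to 1697, 1624 and 1517 genes. Of the libraries, protoplast 15, a high-share cell, stood apart with 2904 genes on 47266 UMIs. The next lowest of the 47 cells of the pool with at least 30000 UMIs had 4353 genes. GRMZM2G028910, an unnamed model and the most abundant row, held 20.3% of a low-share cell's UMIs at the median and 22.5% of a high-share cell's. The part of depth and of these libraries in the differences below was not tested beyond the values given beside them.

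Across the transcriptome the high-share and low-share cells were close. Gene models were compared when their mean reached 50 TPM and at least 25% of the 60 low-share and high-share cells had a UMI on them, which 1438 of 41075 met. Each ratio given below is a log2 of mean TPM plus 10 in high-share cells over mean TPM plus 10 in low-share cells. The median ratio was -0.18, and ratios are given relative to it. Of the 1438 models, 1243 (86.4%) lay within 0.5 of the median on the log2 scale, and the quartiles were -0.23 and 0.23. At least 2-fold higher in high-share cells were 7 models (0.487%), and 2 were at least 2-fold lower (0.139%). Just outside 2-fold were GRMZM2G080594 (-0.98), cpi2 (-0.98) and GRMZM2G086723 (0.94). The plot of all compared models shows the 9 models at low to medium levels.

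**Figure D3:**
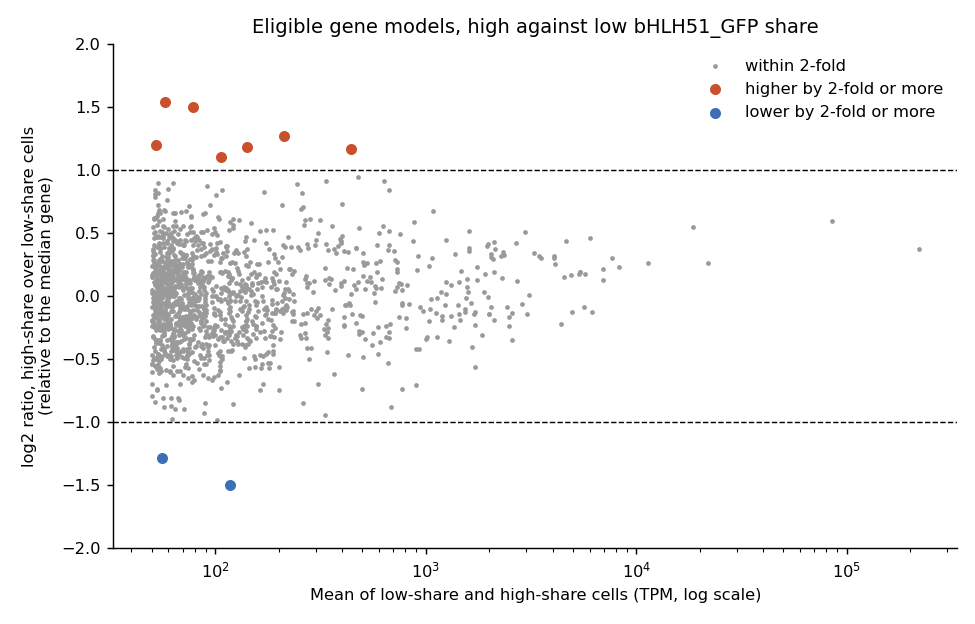
Each point is 1 of the 1438 compared gene models, with its mean over low-share and high-share cells in TPM on a log axis and its log2 ratio relative to the median gene on the vertical axis. Dashed lines mark 2-fold, with 7 models above and 2 below.

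The same division by the other 3 construct shares gave similar numbers, from the same cells. Dividing by the bHLH122_GFP share put 3 of 1415 models past 2-fold higher (0.212%) and 8 lower (0.565%). High bHLH51_GFP share and low bHLH122_GFP share were largely the same cells, 23 of 30, and the Spearman correlation of the shares was -0.79. The Ms23_GFP share, whose spread did not exceed counting error, put 9 of 1418 models higher (0.635%) and 5 lower (0.353%). The Ms32_GFP share put 7 of 1470 higher (0.476%) and 5 lower (0.34%). Of the models past 2-fold by bHLH51_GFP share, GRMZM2G118624 had a ratio of 0.89 by bHLH122_GFP share, -0.08 by Ms23_GFP share and -0.54 by Ms32_GFP share. GRMZM2G083326 had -0.79, 0.09 and -0.24, and GRMZM2G162396 -1.25, -0.25 and 0.12. GRMZM2G170805 had -1.03, -1.21 and -1.36, past 2-fold by each of these shares. GRMZM5G880753 had -1.25, -1.47 and -0.40, and GRMZM2G455413 -0.72, -0.87 and -0.43. GRMZM2G303374 had -0.55, -0.35 and -0.16, wip1 -0.79, 0.63 and -0.30, and dhn1 0.73, 0.33 and 0.62. The 4 shares come from the same UMIs and cells, so these values are not independent. The difference between these divisions was not tested, and the count for bHLH51_GFP is not called particular to it.

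Of the 9 models past 2-fold, 5 also met the further conditions of a median in the same direction, a counting interval of the summed UMIs on that side of 1, and a ratio past 2-fold without the highest cell of each group. These conditions use the same cells and add no independent support. Of the 9, GRMZM2G162396, GRMZM2G303374, GRMZM5G880753 and dhn1 had a mean under 50 TPM in one group and met the expression minimum only through the group where they are high, which favours a difference. GRMZM2G162396, an unnamed model, ranged from 0 to 208 TPM in low-share cells, where 13 of 30 cells had a UMI, and from 0 to 397 TPM in high-share cells, where 20 had one. Its means were 27.9, 35.7 and 87.1 TPM in low-share, middle-share and high-share cells, a ratio of 1.54. GRMZM2G083326 ranged from 0 to 360 TPM in low-share cells and from 0 to 467 TPM in high-share cells. Its means were 91.1, 121 and 192 TPM, a ratio of 1.18, and its medians 95.7 and 187 TPM in the low-share and high-share cells. Both models stepped upward through the middle-share cells, with ranges that overlapped between groups. For GRMZM2G303374 the means were 31.3, 73.5 and 73.7 TPM, a ratio of 1.20. It was seen in 16 low-share and 25 high-share cells, and its middle-share cells already stood at the level of the high-share cells.

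In the other direction stood GRMZM2G118624, also unnamed. It was seen in 18 of 30 cells in both groups. It ranged from 0 to 1061 TPM in low-share cells and from 0 to 312.5 TPM in high-share cells. Its means were 184, 124 and 50.9 TPM in rising order of share, a ratio of -1.50. Its medians were 59.5, 85.6 and 27.7 TPM, so the middle-share cells were highest by median and only the means fell in steps. Its summed UMIs were 155 and 45, a ratio of 0.189 (0.132 to 0.265). The 2 highest low-share cells held 34.5% of its level there. In the pool of pre-meiotic factors its mean was 2.87 TPM.

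In 3 other models past 2-fold, protoplast 15 held a large part of the level in high-share cells. GRMZM5G880753, which met the further conditions, had means of 40.6, 94.4 and 116 TPM and a ratio of 1.5. It was seen in 13 low-share and 25 high-share cells, with medians of 0, 72.8 and 57.3 TPM in rising order of share. Without the highest cell of each group its ratio was 1.14. Protoplast 15 alone held 38.2% of its level in high-share cells. GRMZM2G170805 had means of 132, 201 and 293 TPM, with 38.5% in the same cell, and its medians of 101 and 103 TPM were alike. GRMZM2G455413 had means of 292, 495 and 591 TPM, with 23.2% in that cell. In the same order of models, the 2 highest high-share cells together held 51.8%, 58.4% and 35.2% of the level in that group. The other 28 high-share cells had means of 60.0, 131 and 410 TPM. Without their own 2 highest cells, low-share cells had means of 27.4, 104 and 247 TPM. Leaving out protoplast 15 formed both groups anew with 30 cells each. The ratios of these 3 models were then 0.86, 0.57 and 0.80, all short of 2-fold. The ratios of GRMZM2G162396, GRMZM2G083326, GRMZM2G303374 and GRMZM2G118624 without protoplast 15 were 1.54, 1.15, 1.23 and -1.53.

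Of the 9 models, 2 have a name. wip1 (GRMZM2G156632), a wound-induced gene for a protease inhibitor, ranged from 0 to 263 TPM in low-share cells and from 0 to 849 TPM in high-share cells. Its means were 70.3, 127 and 142 TPM and its ratio 1.10. The 2 highest high-share cells, at 849 and 812 TPM, held 38.9% of the level of wip1 in that group, and the other 28 had a mean of 93.2 TPM. dhn1 (GRMZM2G079440, also named rab17), which encodes a dehydrin of drying seeds and water stress, ranged from 0 to 828 TPM and from 0 to 106 TPM in low-share and high-share cells. Its means were 86.6, 43.6 and 25.0 TPM and its ratio -1.29. Its medians, 11.5 and 18.4 TPM, went the other way. The 2 highest low-share cells held 50.5% of its level there, and the other 28 had a mean of 45.9 TPM. Without their 2 highest cells, high-share cells had a mean of 20.0 TPM. Leaving out the highest cell of each group gave a ratio of -0.98.

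**Figure D4:**
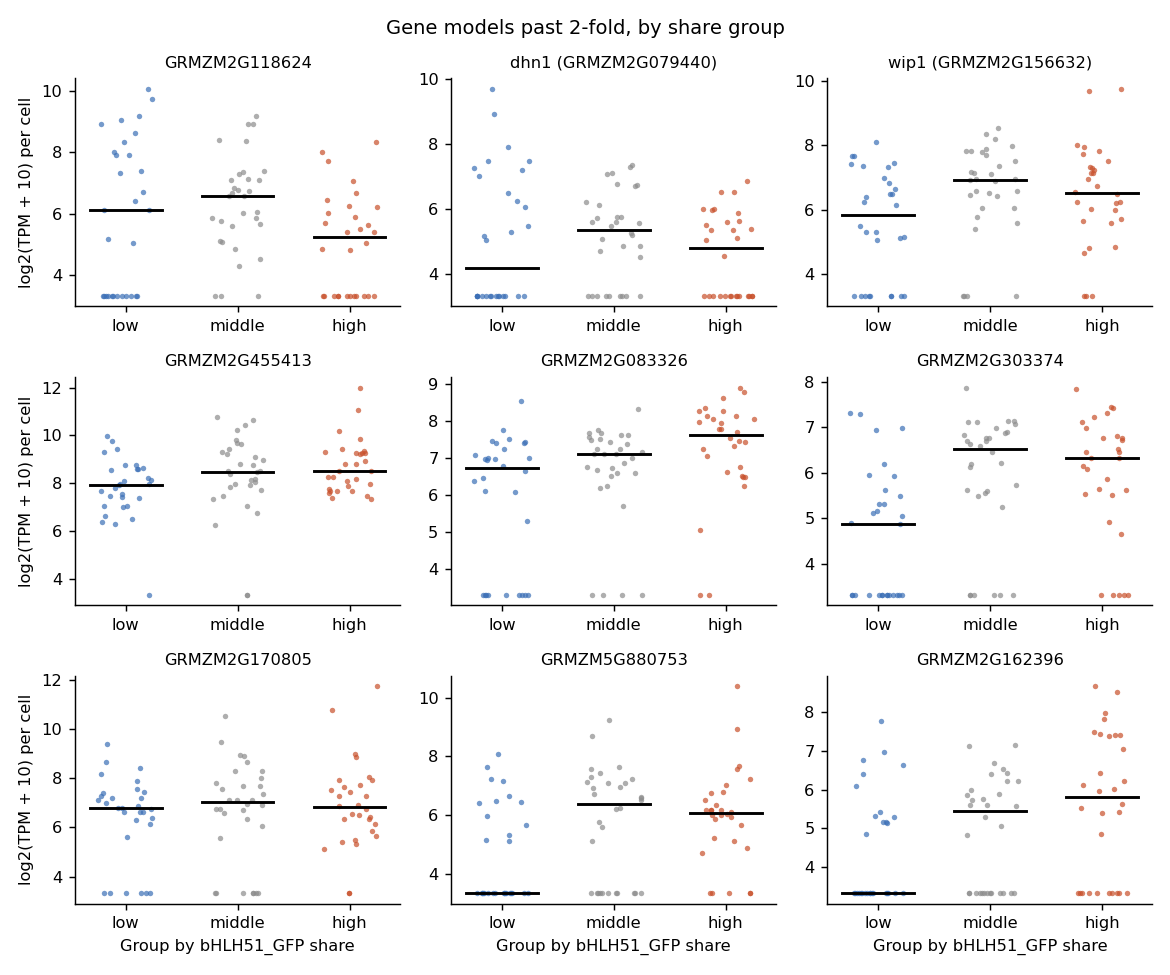
Points are single cells on a log2 scale of TPM plus 10 and bars are medians, for the 9 gene models past 2-fold in low-share, middle-share and high-share cells; points at the floor of a panel are cells with no UMI. The groups overlap in every panel, and from low-share to high-share cells the medians of GRMZM2G170805 and dhn1 do not follow their means.

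Several of these differences did not hold in cells with more construct UMIs. In the 45 cells with at least 50 UMIs on the 4 rows, an alternative chosen after the values were seen, 15 cells with the highest share were set against 15 with the lowest. All 15 of the former were high-share cells, but 10 of the latter were low-share cells. This minimum also leaves out protoplasts 15 and 16, with 26 and 19 UMIs on the 4 rows, which are the highest high-share cells of GRMZM2G455413, GRMZM2G170805 and GRMZM5G880753 (protoplast 15) and of wip1 (protoplast 16). There 6 of 1334 models were 2-fold higher (0.45%) and 7 lower (0.525%), and 2 of the 7 higher and 1 of the 2 lower models were among them. GRMZM2G162396 had a ratio of 1.70 (25.5 against 92.2 TPM), GRMZM2G083326 1.02 (116 against 217 TPM) and GRMZM2G118624 -1.72 (159 against 35.6 TPM). GRMZM2G303374 had 0.72. wip1 was at -0.33, GRMZM2G455413 at -0.058, GRMZM2G170805 at -1.16 and GRMZM5G880753 at -0.12, each with the sign turned. The parts of share precision and of these cells in the turn were not told apart. dhn1 was at -0.37.

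Depth moved with some of the same genes. Below the median depth of 30474 UMIs, 18 low-share and 11 high-share cells were compared, and at or above it 12 and 19 cells. GRMZM2G118624 had ratios of -1.21 and -1.49 in the shallower and deeper cells, and GRMZM2G083326 of 1.04 and 1.12. GRMZM2G162396 had 2.19 and 0.89, GRMZM2G303374 1.43 and 0.92, and dhn1 -2.37 and -0.34. Over the 92 cells the Spearman correlation with UMIs per cell was 0.43 for GRMZM2G162396, 0.21 for GRMZM2G083326 and -0.11 for GRMZM2G118624. Across the 1438 models, which are not independent of each other, a model's correlation with the share and its correlation with UMIs per cell were themselves correlated at 0.44 (Spearman).

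Among the compared models with a gene name that met the conditions on medians and counting intervals, none but wip1 was past 2-fold relative to the median gene. On the higher side stood sip1 (GRMZM2G374971; means of 67.7, 106 and 116 TPM, ratio 0.88), cc7 (GRMZM2G148925), a gene for a cystatin, an inhibitor of cysteine proteases (73.1, 94.9 and 106 TPM, 0.66), and CSD4 (GRMZM5G895313; 71.8, 66.7 and 87.8 TPM, 0.44). CSD4 also has a GFP construct row in the table, and its gene model had a mean of 1163 TPM in the other pool. In the shallower cells its ratio was -0.24 and in the deeper cells 1.12.

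On the lower side, cpi2 (GRMZM2G012160), also a cystatin gene, had means of 90.0, 84.1 and 34.8 TPM and a ratio of -0.98. Its median was 98.4 TPM in low-share cells and 28.5 TPM in high-share cells. The 2 cystatin genes thus stood on opposite sides. pdh1 (GRMZM2G145715) had means of 125, 100.3 and 52.8 TPM (-0.93). COL5 (GRMZM2G075562), a gene of the CONSTANS-like family, had 99.7, 60.0 and 42.2 TPM (-0.89). The shallower and deeper cells gave ratios of -1.92 and -0.27 for pdh1 and of -1.16 and -0.27 for COL5. bip2 (GRMZM2G415007), which encodes a chaperone of the endoplasmic reticulum, had 167, 139 and 76.4 TPM (-0.86). AO1 (GRMZM2G141535), an aldehyde oxidase gene, had 352, 279 and 168 TPM (-0.84). gst7 (GRMZM2G028556), a glutathione S-transferase gene, had 1016, 1003 and 534 TPM (-0.74). Over the 92 cells the Spearman correlation with UMIs per cell was -0.35 for gst7, -0.25 for AO1 and -0.20 for bip2. With the share it was -0.23, -0.18 and -0.18. For cpi2, pdh1 and COL5 it was -0.19, -0.05 and -0.20 with UMIs per cell and -0.34, -0.28 and -0.27 with the share. The shallower and deeper cells gave ratios of -0.51 and -0.90 for gst7 and of -0.85 and -0.63 for AO1. All 6 were lower in the high-share than in the middle-share cells, and relative to the median gene none was 2-fold lower. Not set against the median gene, the log2 ratios ran from -1.16 for cpi2 to -0.92 for gst7, and gst7 alone stayed within 2-fold.

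The models most like the share over all 92 cells were described by Spearman correlation. The highest were GRMZM2G083326 (0.40), GRMZM2G301183 (0.36) and GRMZM5G821594 (0.35), all unnamed. GRMZM2G301183 had means of 81.1, 72.7 and 134 TPM and GRMZM5G821594 of 130, 198 and 209 TPM. The lowest were GRMZM2G116520 (-0.46; means of 930, 692 and 440 TPM), GRMZM2G169372 (-0.38; 470, 382 and 266 TPM) and GRMZM2G075315 (-0.37; 1173, 922 and 632 TPM). GRMZM2G116520 had a correlation of -0.43 with the UMIs per cell, about as strong as with the share.

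Gene lists were described by their counts and medians, beside a median of 0 and quartiles of -0.23 and 0.23 over all compared models, of which 0.487% were past 2-fold higher and 0.139% lower. Heat shock proteins, chaperones that keep damaged proteins folded, had 12 compared members, of which 9 lay below the median gene and none was past 2-fold, with a median of -0.17. hsp18 (GRMZM2G149647) had means of 2152, 2048 and 1529 TPM (-0.31), hsp18f (GRMZM2G083810) 2786, 2387 and 2191 TPM (-0.17), and the Hsp70 model GRMZM2G310431 2854, 3091 and 2299 TPM (-0.13). hsp1 (GRMZM5G802801) stood at 0.38 with 58.0, 83.7 and 68.4 TPM. Summed over the list, low-share cells ranged from 5734 to 32454 TPM with a median of 15773, and high-share cells from 3174 to 29960 TPM with a median of 13628. The ranges overlapped widely. The one compared heat shock factor gene, Hsf05 (GRMZM2G133023), had 176, 147 and 136 TPM (-0.17).

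Glutathione S-transferases, which attach glutathione to toxic compounds, had 7 compared members of 27 matched, with 4 above and 3 below the median gene and a median of 0.01. gst7 is described above. gst5 (GRMZM2G308687) had 3046, 2991 and 2106 TPM (-0.35), gst2 (GRMZM2G132093) 1274, 1315 and 1219 TPM (0.12), and gst24 (GRMZM2G032856) 497, 517 and 521 TPM (0.24). Summed over the 27 matched genes, low-share cells ranged from 2129 to 19886 TPM with a median of 5655. High-share cells ranged from 1502 to 10804 TPM with a median of 4099. This sum is not set against the median gene, while the median of 0.01 is. Not set against the median gene, the median member, gst1 (GRMZM2G116273), was also lower in high-share cells, at -0.17. Of 18 matched genes for folding and checking of proteins in the endoplasmic reticulum, 3 were compared, and all 3 had ratios under 0, with a median of -0.56. Besides bip2 these were the calnexin gene CNX (GRMZM2G022180; 134, 116 and 76.5 TPM, -0.56) and pdi8 (GRMZM2G389173), a protein disulfide isomerase gene (67.2, 46.9 and 51.8 TPM, -0.14). The shared direction did not hold in the shallower cells. There CNX stood at -0.06 and pdi8 at 0.12, against -1.07 and -0.44 in the deeper cells, while bip2 stood at -0.58 and -1.11. The calreticulin gene cal2 (GRMZM2G067511), which was below the expression minimum, went the other way with 26.7, 67.2 and 66.3 TPM (1.23). It was seen in 14 low-share and 25 high-share cells. The interval of its summed UMIs per UMI sequenced, 0.961 to 2.23, held 1. The interval lay above the median compared gene, which stood at -0.23 on the log2 scale in summed UMIs.

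The list of defence proteins had 6 compared members of 25, 4 above and 2 below the median gene, 1 of them past 2-fold, and a median of 0.22. Summed over the 25 matched genes, the list had a median of 2097 TPM in low-share cells and 1511 TPM in high-share cells. This sum is not set against the median gene, while the ratios of the members are, so their directions are not compared. The compared members are given next. Besides wip1 they were the protease inhibitor gene MPI (GRMZM2G028393; 1592, 1373 and 1274 TPM, -0.14), PR-5 (GRMZM2G402631; 89.7, 71.5 and 76.1 TPM, -0.03), a gene of a pathogenesis-related protein, and 3 models with the symbol TPS3 or TPS9, which is used for terpene synthases and for trehalose phosphate synthases (0.13, 0.31 and 0.44). The list of jasmonate genes, for a wound hormone, had 4 compared members with a median of 0.05. opr2 (GRMZM2G000236) had 5741, 6129 and 5730 TPM (0.18), and aos1 (GRMZM2G067225), for allene oxide synthase, 64.2, 55.9 and 82.4 TPM (0.50).

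Autophagy genes, whose products recycle cell contents, had 6 compared members, of which 4 had ratios under 0 (median -0.26). Atg8e (GRMZM2G014975) had 172, 166 and 183 TPM (0.27) and atg9 (GRMZM2G035461) 66.3, 66.9 and 43.1 TPM (-0.35). The 15 translation genes had a median of -0.07, with RPL10 (GRMZM2G087233) at 1072, 938 and 869.5 TPM (-0.12). The 4 glycolysis genes had a median of -0.15, with aldolase2 (GRMZM2G066024) at 168, 110 and 92.3 TPM (-0.62) and eno1 (GRMZM2G064302), for enolase, at 164, 176 and 156 TPM (0.11). The ubiquitin list had 1 compared member, MUB6 (GRMZM2G118637; 1175, 1132 and 904 TPM, -0.20), and the list of dehydrins and catalases had dhn1 and the catalase gene cat1 (GRMZM2G088212; 170, 143 and 129 TPM, -0.20). Of 40 matched genes on the list of the bHLH family, 3 were compared, namely ms23, ms32 and GRMZM2G139372, and 14 had no UMI in either group.

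**Figure D5:**
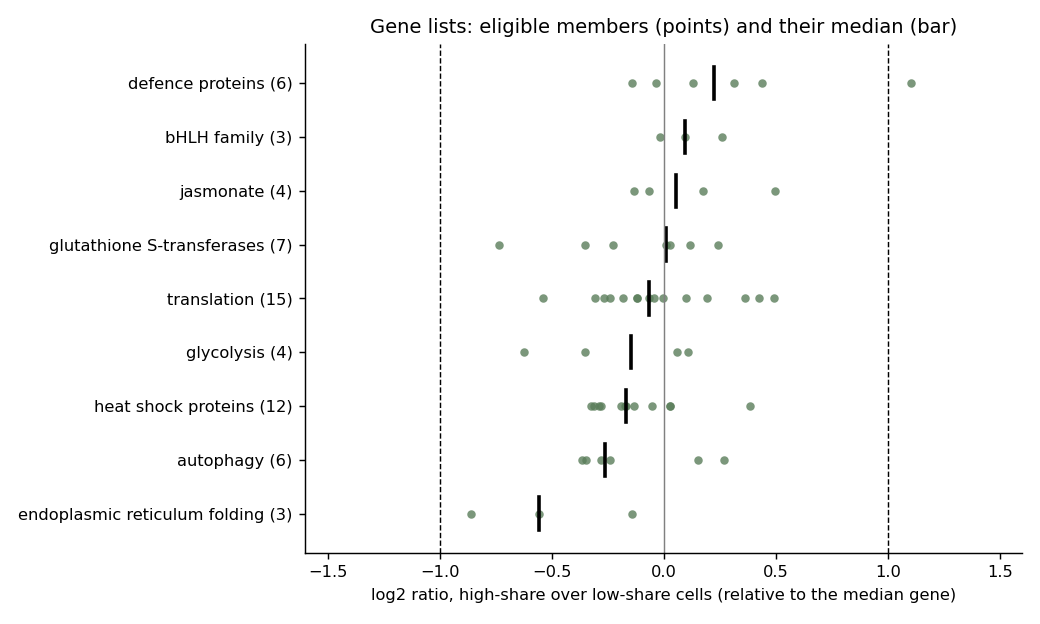
For the 9 lists with at least 3 compared members, each point is a gene model of the list named at the left, with the number compared in brackets, at its log2 ratio relative to the median gene; bars are list medians and dashed lines mark 2-fold. Medians lie between -0.56 for endoplasmic reticulum folding and 0.22 for defence proteins, and wip1 is the single point of these lists past 2-fold.

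Transcripts of PHAS loci, the targets named by the study, were present in both groups at similar levels. The 36 rows of 24-nucleotide PHAS loci summed to 0 to 669 TPM with a median of 320 in low-share cells and to 47.8 to 761 TPM with a median of 275 in high-share cells. Their means were 325, 290 and 298 TPM in low-share, middle-share and high-share cells, a ratio of 0.06 relative to the median gene. The summed UMIs, 276 against 361, gave a ratio of 0.851 (0.725 to 0.999) per UMI sequenced, where the median compared gene stood at -0.23 on the log2 scale. A UMI of this class was seen in 29 of 30 low-share and 30 of 30 high-share cells. Most of it was 24PHAS_NO166, with means of 209, 175 and 191 TPM (0.06). 24PHAS_NO63 had 46.3, 58.6 and 53.3 TPM (0.35), 24PHAS_NO156 24.4, 20.4 and 13.3 TPM (-0.38) and 24PHAS_NO269 25.0, 13.9 and 23.8 TPM (0.13), and the counting intervals of all 4 held 1.

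The 44 rows of 21-nucleotide PHAS loci summed to means of 93.8, 77.5 and 89.9 TPM, a ratio of 0.12. Low-share cells ranged from 0 to 329 TPM with a median of 78.1 and high-share cells from 0 to 336 TPM with a median of 84.8. A UMI was seen in 21 and 26 of 30 cells, and the deeper high-share cells had UMIs on 26 rows against 16. The summed UMIs, 103 against 110, gave a ratio of 0.694 (0.526 to 0.918), and 1 low-share cell held 32 of the 103. The most widely detected row, 21PHAS_NO588, had means of 16.7, 15.0 and 16.4 TPM (0.16). Over the 92 cells the Spearman correlation with the share was -0.12 for the 24-nucleotide sum and 0.05 for the 21-nucleotide sum.

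Genes of the small RNA machinery were sparse. Of 10 matched members, the microRNA-producing Dicer gene dcl1 (GRMZM2G040762) alone was compared, with 81.1, 49.0 and 50.6 TPM and a ratio of -0.41. The interval of its summed UMIs, 0.478 to 1.08, held 1. argonaute1 (GRMZM2G162525) was seen in 6 low-share and 9 high-share cells, and the dcl4 model GRMZM2G160473 in 7 and 7.

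The labelled leaf source was checked against marker lists. Of 5 matched C4 mesophyll genes 1 was compared, the pyruvate orthophosphate dikinase gene GRMZM2G306345, which had 86.9, 75.0 and 112 TPM (0.51) and was seen in 20 low-share and 27 high-share cells. The summed mesophyll list ranged from 0 to 329 TPM in low-share cells and from 0 to 410 TPM in high-share cells. The bundle sheath list summed to means of 7.48, 12.2 and 12.4 TPM in low-share, middle-share and high-share cells, on 6 UMIs in low-share and 13 in high-share cells. The epidermis list summed to 59.4, 32.6 and 39.2 TPM, on 37 UMIs in low-share and 52 in the more deeply sequenced high-share cells, and the tapetum list (ms26, GRMZM2G091822, and ms8, GRMZM2G119265) had 1 UMI in each of these groups. Genes that define C4 mesophyll beyond the dikinase, such as pep1 (GRMZM2G083841; 2 UMIs in low-share and 5 in high-share cells), were at or near 0 in these etiolated leaves, so the cell type within the leaf was not resolved. The part of cell type in the differences between groups was not tested.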

How the data were processed

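Single protoplasts were profiled with CEL-seq2, which counts 3' ends of polyadenylated RNA, per the labels' protocols. The submitters' processing notes name HISAT2, SAMtools, UMI-tools and the build B73 RefGen_v3, and the sources used here give no versions, annotation or filters. The deposited values are named TPM but are a signal whose sums per cell run from 65502 to 10967874. The authors' cell totals were recycled down the rows of the deposited signal, so most values were divided by another cell's total. Multiplying back gave whole UMIs for 1001042 of 1001042 nonzero values (tolerance 0.001 UMI), and TPM was recomputed per cell. No count model was used. Depth in the bHLH pool ran from 4699 to 148894 UMIs per cell. No 2 cells were identical, no doublet caller was run, and the 4 cells with fewer than 10 construct UMIs were left out.

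Members, lists and the rule for named genes were chosen with earlier results of these data known. The rule names the factor rows and models, up to 12 models on each side that pass 2-fold and the further conditions, up to 6 on each side with a gene name, members of 17 lists with the highest means, 5 PHAS rows and 3 models at each end of the correlation with the share. All 9 models past 2-fold are named as well, which was decided after their values were seen. Names come from the RefSeq table of Zm-B73-REFERENCE-NAM-5.0, which matched 16090 of 41187 row IDs; its coordinates were not used. List members were matched by symbol, with a few models added by ID. Scripts ran in Python 3.11.15 with numpy 2.4.6, pandas 2.3.3 and scipy 1.17.1 and were tested on simulated data. Alternatives covered the pseudocount, the summary over cells, the division of cells, the expression minimum, the totals and the depth.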

Additional observations from a re-analysis of the deposited data

How the results depend on the processing

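Counts of models past 2-fold, 7 higher and 2 lower, depended on the settings. They were 9 and 10 with a pseudocount of 1 TPM, 0 and 0 with 100 TPM, 8 and 6 from summed UMIs, and 40 and 15 from medians. Dividing the cells in 2 gave 2 and 1, and in 4 gave 9 and 11. At least 5 construct UMIs gave 7 and 5, and at least 50 gave 6 and 7. Breaking ties the other way gave 9 and 5, and leaving out protoplast 15 gave 4 and 2. With no expression minimum they were 91 and 267, and without construct rows, factor models and the most abundant row in the totals 13 and 8. Thinned cells gave 31 and 21, shallower cells 56 and 64, deeper cells 16 and 11, and the deposited values as they stand 475 and 475. The ratio of the 24-nucleotide PHAS sum, 0.06, was 0.31 in thinned cells and 0.33 with the deposited values. The cause of these shifts was not tested. Over 20 alternatives, 5 of them added after the values were seen, GRMZM2G118624, GRMZM2G083326, GRMZM2G303374 and GRMZM2G162396 kept their sign in 20 of 20. In the same order they were past 2-fold in 18, 18, 12 and 18 of the 20. The alternatives reuse the same cells, and these models were picked for being past 2-fold, so the counts add no independent support. dhn1 (GRMZM2G079440) turned to 0.54 with medians. With at least 50 construct UMIs wip1 (GRMZM2G156632) turned to -0.33, GRMZM2G455413 to -0.058, GRMZM2G170805 to -1.16 and GRMZM5G880753 to -0.12. No paired analysis was possible because protoplast numbers only count cells and no result comes from a test. The number of UMIs on the construct rows limits how well a cell's share is known. The labels name no separate transfections, which limits all comparisons.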
